A study of Mus musculus with 17 samples.

Results

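The enzymes that build triglyceride in the liver were followed here as 9 genes, Gpam, Agpat2, Lpin1, Lpin2, Dgat1, Dgat2, Mogat1, Mttp and Pnpla3. They were taken by symbol from the RNA table, where all 9 were found among 12334 genes. In the table of acetylated histone H3 lysine 9 (H3K9ac, a mark of active promoters and enhancers), regions were taken when the gene assigned to their nearest start site was a member, which gave 88 of 57499 regions. The livers came from C57BL/6 mice, a common inbred strain, that had eaten a high-fat diet (HFD), with 60% of calories from fat, or a control diet (CD), with 18%, for 10 weeks. Polyadenylated RNA was sequenced in 4 HFD libraries, A to D, and 4 CD libraries, A to D. H3K9ac was measured by chromatin immunoprecipitation in HFD libraries A, B and D, and CD libraries A, C and D. The design text gives 4 mice. No label says whether a letter stands for 1 liver across the assays, at which hour livers were taken, whether the mice had fed, or their sex and age.

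Triglyceride is made by the glycerol phosphate pathway, in which a glycerol-3-phosphate acyltransferase (Gpam, on mitochondria) adds the first fatty acid and an acylglycerolphosphate acyltransferase (Agpat2) the next. A lipin (Lpin1, Lpin2) then removes the phosphate to leave diacylglycerol, and a diacylglycerol acyltransferase (Dgat1, Dgat2) adds the last fatty acid. Mogat1 makes diacylglycerol by a side route from monoacylglycerol, Mttp loads the finished lipid onto apolipoprotein B for secretion, and Pnpla3 is a droplet-bound protein with lipase and acyltransferase activities in vitro.

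RNA libraries held 31802893 to 37596560 counts each, and H3K9ac libraries 9255635 to 12149497. Hepatocyte markers gave 110889 to 137693 CPM (counts scaled to library depth) in summed RNA in HFD and 97936 to 115356 CPM in CD, with 2 of 12 higher in HFD (Cyp2e1 and Tdo2). Of the other cell types a liver piece can hold, 0 of 12 markers of sinusoidal endothelium, 0 of 12 of Kupffer cells and macrophages, 0 of 12 of stellate cells, 0 of 3 listed of lymphocytes and 0 of 3 listed of adipocytes were called, and 1 of 6 listed of cholangiocytes (cells of the bile ducts) was lower (Sox9). The 6 cholangiocyte markers had a median log2 difference of -0.73 and summed to 57.4 to 83.7 CPM in HFD and 84.6 to 100.5 CPM in CD, without overlap. Cyp2e1, Tdo2 and Sox9 were picked with their values in view. An unadjusted p under 0.05 was found for 7 hepatocyte, 4 cholangiocyte and 2 stellate markers, and DESeq2 called 5, 2 and 1 of them. For endothelium, Kupffer cells, lymphocytes and adipocytes both counts were 0. Of all 12334 genes, 2520 had an unadjusted p under 0.05 and DESeq2 called 1405. The adipocyte markers Adipoq, Cfd, Lep, Plin1 and Retn had no line in the RNA table, and the remaining 3 summed to 20.2 to 26.6 CPM in HFD and 22.7 to 29.3 CPM in CD. In bulk tissue, fewer cells of a type and less RNA per cell cannot be told apart.

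Windows of the 250 bases before RefSeq start sites (build GRCm38.p6, which is mm10) were available for 7 members, 10 windows in all, and 7 of these lay under an H3K9ac region. Both windows of Gpam are shown because the gene carried the mark over 2 separate starts, together with the window of Lpin2 that held an E-box and that of Pnpla3, whose start was covered by a region assigned to another gene. Letters in capitals mark matches on either strand to the E-box CACGTG, the CCAAT box, the TATA box TATAAA, the GC box GGGCGG, the D-box TTATGTAA or the core of the sterol regulatory element TCACNCCA, where N is any base. The Gpam start nearer the gene (chr19:55099478-55099727, minus strand), the Gpam start farther upstream (chr19:55127239-55127488, minus strand), the Lpin2 start (chr17:71183282-71183531, plus strand) and the Pnpla3 start (chr15:84167566-84167815, plus strand) are preceded by these bases.
Gpam near: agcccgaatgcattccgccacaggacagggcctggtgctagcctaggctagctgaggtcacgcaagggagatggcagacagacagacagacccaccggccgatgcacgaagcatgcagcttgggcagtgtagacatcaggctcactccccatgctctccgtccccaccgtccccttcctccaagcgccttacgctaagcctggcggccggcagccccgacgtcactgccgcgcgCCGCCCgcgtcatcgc
Gpam upstream: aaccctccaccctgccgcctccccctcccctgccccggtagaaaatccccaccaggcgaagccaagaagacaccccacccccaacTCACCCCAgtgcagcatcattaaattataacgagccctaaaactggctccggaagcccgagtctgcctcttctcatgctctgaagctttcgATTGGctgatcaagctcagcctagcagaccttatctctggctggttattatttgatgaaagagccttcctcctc
Lpin2: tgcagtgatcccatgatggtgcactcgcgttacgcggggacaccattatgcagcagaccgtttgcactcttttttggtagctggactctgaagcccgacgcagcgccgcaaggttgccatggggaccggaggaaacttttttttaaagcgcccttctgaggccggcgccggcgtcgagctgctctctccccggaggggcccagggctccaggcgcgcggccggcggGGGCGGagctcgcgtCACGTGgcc
Pnpla3: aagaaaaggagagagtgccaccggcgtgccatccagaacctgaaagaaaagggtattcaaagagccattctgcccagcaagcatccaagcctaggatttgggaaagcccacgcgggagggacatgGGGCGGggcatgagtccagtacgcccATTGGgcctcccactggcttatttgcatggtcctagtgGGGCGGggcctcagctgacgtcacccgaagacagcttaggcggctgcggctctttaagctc

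The upstream Gpam window held a CCAAT box 74 bases and a sterol element core 165 bases before the start, while the nearer one held a GC box 16 bases before it. The printed Lpin2 window held an E-box 9 bases and a GC box 24 bases before the start. Another Lpin2 window (chr17:71183728-71183977) held a GC box 79 bases before its start and no E-box. A further one (chr17:71204404-71204653) held CCAAT boxes 233, 165 and 57 bases before its start and lay under no region. In the Pnpla3 window a CCAAT box lay 99 bases and GC boxes 125 and 61 bases before the start. The Agpat2 window, which is not printed, held 2 GC boxes that share a base. None of the 6 motifs was in the windows of Lpin1, Mogat1 and Mttp. The Lpin1 window belongs to a RefSeq start at chr12:16610966 and lay under no region. The Lpin1 5′ end in the RNA table is another one, at chr12:16589770, and no window was available for it. Over 32851 windows of the same length, 6.02% held the E-box, 33.8% the CCAAT box, 12.4% the TATA box, 32.7% the GC box, 0.819% the D-box and 3.67% the sterol element core. These matches describe letters, and binding by a factor was not measured.

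Dgat2, which adds the last fatty acid in hepatocytes and is linked above all to newly made fatty acids, was the only member whose RNA passed the threshold. The design text asks how H3K9ac relates to gene expression, and the RNA of each member under the diets is given before its mark. Dgat2 had 668, 664, 512 and 561 CPM in HFD A to D, against 403, 314, 449 and 415 CPM in CD A to D. All 4 HFD libraries lay above all 4 CD libraries. The means were 601 ± 77.3 CPM in HFD and 395 ± 57.5 CPM in CD (SD, n = 4 each), and the gene rose by a log2 fold change of 0.60 (SE 0.14, 1.52-fold, adjusted p = 0.0231, edgeR quasi-likelihood, Benjamini-Hochberg over all genes). The call was lost when any 1 of 3 libraries was left out: the adjusted p was 0.0898 with HFD B removed, 0.0607 with CD A removed and 0.0569 with CD B removed.

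Of all genes in the table, 7.27% passed this threshold (3.63% higher and 3.64% lower in HFD), so 1 of 9 members higher and 0 lower is a share near the background. Without an adjustment for the number of genes, 3 members had p under 0.05, Dgat2, Lpin1 and Lpin2, beside 2520 of all 12334 genes. The diets did not overlap for 1 member, against 14.3% of all genes. The median log2 change of the 9 members was 0.27, beside 0.01 for all genes tested, with 5 positive and 4 negative. In the authors' deposited table the false discovery rate was 0.00146 for Dgat2, 0.00976 for Lpin1 and 0.0582 for Lpin2, and 2 of the 9 members were under 0.05.

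**Figure D1:**
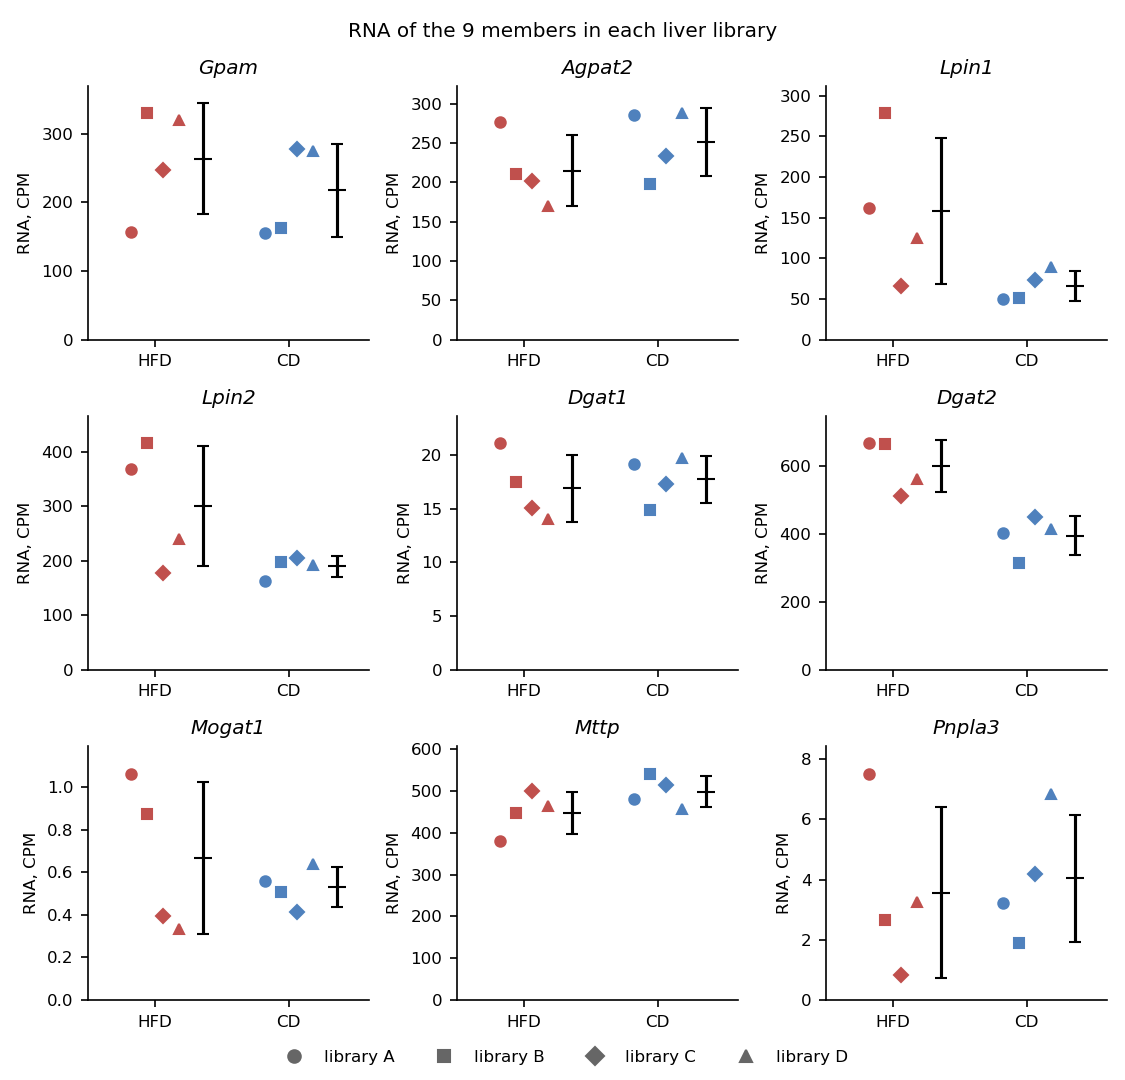
RNA of the 9 members in CPM (linear axes from 0, a separate scale for each gene) in HFD (left) and CD (right). Each symbol is 1 library, and the black bar with whiskers is the mean ± SD of 4 libraries. Dgat2 has all HFD libraries above all CD libraries, while Lpin1 and Lpin2 have HFD A and B high and HFD C within the range of CD.

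Both lipins had higher mean RNA in HFD, carried mainly by libraries A and B. Lpin1, the lipin that also acts with PPAR coactivators in the nucleus, had 162, 279, 66.2 and 125 CPM in HFD A to D, against 49.8, 51.5, 73.7 and 89.0 CPM in CD A to D. HFD C lay inside the CD range and the other 3 HFD libraries above it. The means were 158 ± 89.6 CPM in HFD and 66.0 ± 18.8 CPM in CD (SD, n = 4 each), a log2 difference of 1.26 (SE 0.37, 2.39-fold, adjusted p = 0.069), which did not pass the threshold in edgeR's fit. Without HFD C the adjusted p was 0.0137 and without HFD B it was 0.197, so that 1 library sets on which side of the threshold it falls.

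Lpin2, the main lipin of liver under basal conditions, had 368, 415, 177 and 240.2 CPM in HFD A to D, against 162, 199, 205 and 193 CPM in CD A to D. Again HFD C lay inside the CD range. Lpin2 averaged 300.2 ± 111 CPM in HFD and 189.7 ± 19.05 CPM in CD (SD, n = 4 each), a log2 difference of 0.66 (SE 0.23, adjusted p = 0.129). Without HFD C its log2 difference was 0.85 (adjusted p = 0.0209), and without HFD B it was 0.46 (adjusted p = 0.376). The lipin that is scarce in liver, Lpin3, had 5.28 ± 0.172 CPM in HFD and 5.74 ± 1.11 CPM in CD (adjusted p = 0.746).

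The members of the acylation steps that start the pathway, Gpam and Agpat2, did not pass the test. Gpam had 156, 330.0, 248 and 321 CPM in HFD A to D, against 156, 163, 278 and 275 CPM in CD A to D. Each diet held low and high libraries, and the log2 difference was 0.27 (SE 0.26, adjusted p = 0.647). Agpat2, whose loss in people and mice causes lipodystrophy, had 277, 211, 201 and 170.4 CPM in HFD A to D, against 286, 198, 233 and 288 CPM in CD A to D. The ranges overlapped and the log2 difference was -0.22 (SE 0.17, adjusted p = 0.525).

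Dgat1, the acyltransferase that shares the last step with Dgat2 but is unrelated to it in sequence, had 21.1, 17.5, 15.1 and 14.02 CPM in HFD A to D, against 19.2, 14.8, 17.3 and 19.7 CPM in CD A to D. Its log2 difference was -0.07 (SE 0.15, adjusted p = 0.867), and it was positive, at 0.01, without HFD D. Whether Dgat1 and Dgat2 differed from each other in their change was not tested. Mogat1 had 37, 29, 13 and 11 reads in HFD A to D, against 18, 19, 14 and 21 reads in CD A to D. At this depth HFD A and B were the highest of the 8 libraries and HFD C and D the lowest, and the log2 difference of 0.34 (SE 0.38, adjusted p = 0.713) did not pass.

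Mttp, the microsomal transfer protein, had 379, 446, 499.6 and 465 CPM in HFD A to D, against 480.4, 541, 515 and 456 CPM in CD A to D. The log2 difference was -0.15 (SE 0.11, adjusted p = 0.502), with overlapping ranges. Pnpla3 was the member that varied most within HFD. It had 7.53, 2.65, 0.823 and 3.25 CPM in HFD A to D, a 9.15-fold range, against 3.23, 1.89, 4.18 and 6.86 CPM in CD A to D. The log2 difference was -0.17 (SE 0.55, adjusted p = 0.914), and its sign was positive without HFD C (0.15) and without CD D (0.21).

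Per transcript length, in FPKM (fragments scaled to transcript length and library depth), Dgat2 had the highest level of the 9 members in both diets, at 267 FPKM in HFD and 176 FPKM in CD. In HFD its 4 libraries did not overlap with those of Agpat2, the next in order at 137 FPKM, while in CD they did, with Agpat2 at 160 FPKM. Mttp (101 FPKM in HFD and 113 FPKM in CD), Gpam (68.9 and 56.9), Lpin2 (51.2 and 32.3) and Lpin1 (27.6 and 11.5) followed in the same order in both diets. In HFD each of these overlapped with its neighbour, and in CD Mttp, Gpam, Lpin2 and Lpin1 stood apart from each other. Dgat1 came next, at 9.67 FPKM in HFD and 10.1 FPKM in CD, and its libraries overlapped with those of Lpin1 in both diets. Pnpla3 (0.779 FPKM in HFD and 0.882 FPKM in CD) and Mogat1 (0.602 and 0.488) were lowest and overlapped with each other in both diets.

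The other isoforms of the same steps put these levels in context. Of 9 in the table, 1 rose, 0 fell and 8 did not pass, with a median log2 change of 0.36 beside 0.01 for all genes. An unadjusted p under 0.05 (edgeR) held for 4 of the 9, and DESeq2 called 2. The isoform that rose was Agpat3, an acyltransferase of the endoplasmic reticulum and Golgi, with 244, 260.1, 253 and 244 CPM in HFD A to D, against 183, 178, 201 and 181 CPM in CD A to D. The libraries of each diet lay close together (log2 fold change 0.43, SE 0.08, adjusted p = 0.0117), and without HFD B the adjusted p was 0.0607. Lclat1, which acylates lysocardiolipin, also had all HFD libraries above all CD libraries, but its adjusted p was 0.0736 (log2 difference 0.36, SE 0.11). By DESeq2 it was 0.0197.

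Among the other glycerol-3-phosphate acyltransferases, Gpat4 (listed as Agpat6) averaged 189 ± 34.6 CPM in HFD and 145 ± 15.4 CPM in CD (adjusted p = 0.135). Gpat3 (listed as Agpat9) averaged 4.69 ± 1.49 CPM in HFD and 2.99 ± 0.888 CPM in CD (adjusted p = 0.222), and Gpat2 2.25 ± 0.316 CPM in HFD and 2.58 ± 0.390 CPM in CD (adjusted p = 0.645). Agpat1, Agpat4 and Agpat5 had log2 differences of 0.25, 0.40 and -0.06, none past the threshold. Per length, Gpat4 (47.9 FPKM in HFD and 36.7 FPKM in CD) came nearest to Gpam and Agpat3 (72.8 FPKM in HFD and 54.0 FPKM in CD) to Agpat2. Mogat2 had no line in the RNA table.

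**Figure D2:**
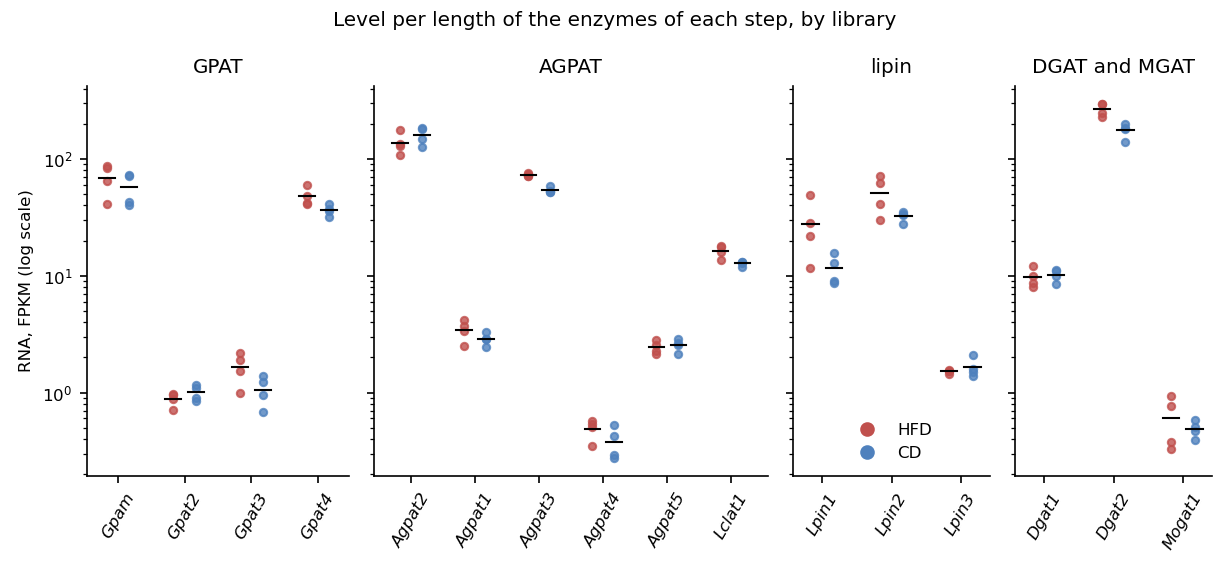
RNA level per transcript length (FPKM, log axis) of the enzymes of each step, with HFD libraries at the left and CD libraries at the right of each gene. Each point is 1 library and each line the mean of 4. Dgat2 tops the last step at 267 FPKM in HFD and 176 FPKM in CD, against about 10 FPKM for Dgat1 (9.67 in HFD and 10.1 in CD).

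Around the pathway, the enzymes that supply or divert its substrates mostly did not pass the test. In the supply of glycerol-3-phosphate and acyl-CoA, 0 of 6 genes rose and 1 fell (median log2 change -0.27), namely Acsl1, the main acyl-CoA synthetase of liver, with 1180 ± 113 CPM in HFD and 1678 ± 58.3 CPM in CD (log2 fold change -0.51, SE 0.10, adjusted p = 0.0135). On the branch from diacylglycerol to phospholipid, 0 of 8 rose and 1 fell (median -0.18). This was Chka, the choline kinase that opens phosphatidylcholine synthesis, with 22.2, 18.5, 32.5 and 36.4 CPM in HFD A to D, against 81.4, 66.6, 91.8 and 119 CPM in CD A to D. Every HFD library lay far below every CD library (log2 fold change -1.71, SE 0.24, adjusted p = 0.00174).

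Of the genes of lipoprotein assembly and secretion beside Mttp, 0 of 8 rose and 1 fell (median 0.05). Ces1d, a carboxylesterase that frees stored triglyceride for secretion, had 497, 507, 239 and 230.1 CPM in HFD A to D, against 862, 1039, 994 and 1148 CPM in CD A to D (log2 fold change -1.46, SE 0.26, adjusted p = 0.00798). It has close paralogs, and reads may be split among them. Of triglyceride breakdown, 0 of 6 rose and 1 fell (median -0.10), namely Abhd5, the coactivator of adipose triglyceride lipase, with 30.4 ± 2.44 CPM in HFD and 51.3 ± 10.95 CPM in CD (log2 fold change -0.75, SE 0.15, adjusted p = 0.0117). Of the droplet coat, 0 of 9 rose and 1 fell (median -0.34). That gene, Cidec, which fuses droplets, had 47, 29, 22 and 24 reads in HFD A to D, against 63, 130, 100 and 50 reads in CD A to D (log2 fold change -1.45, SE 0.32, adjusted p = 0.0212). It lost its call in 5 of the 8 fits that left out 1 library (without HFD B, HFD C, HFD D, CD B or CD C, adjusted p up to 0.0771). An unadjusted p under 0.05 (edgeR) held for 3 of 6 supply genes and 3 of 8 of the phospholipid branch. It also held for 2 of 8 of secretion, 2 of 6 of breakdown and 5 of 9 of the droplet coat. Of all 12334 genes, 2520 had it. DESeq2 called 2, 1, 1, 2 and 1 genes of these lists in turn, beside 1405 of all genes.

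Of 8 transcriptional regulators of lipid metabolism, 4 rose and 1 fell (median 0.63). Srebf1, whose protein SREBP-1c drives lipogenic genes, had 637, 671, 514 and 452 CPM in HFD A to D, against 170, 147, 269 and 355 CPM in CD A to D. The diets did not overlap (log2 fold change 1.27, SE 0.26, adjusted p = 0.0144), and without HFD B the adjusted p was 0.0508. Ppara, the receptor that drives fatty acid oxidation, had 523 ± 61.1 CPM in HFD and 264 ± 37.4 CPM in CD (log2 fold change 0.99, SE 0.13, adjusted p = 0.00116). Of its coactivators, Ppargc1b rose by a log2 fold change of 1.08 (adjusted p = 0.0117) and Ppargc1a by 0.98 (adjusted p = 0.0119). The regulator that fell, named here after its values had been seen, was Pparg, a receptor that drives lipid storage, with 7.29 ± 1.78 CPM in HFD and 15.8 ± 5.76 CPM in CD (adjusted p = 0.0253).

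Clock genes also differed between the diets. Of 13, 8 rose and 4 fell (median 1.27). Dbp, a clock output factor, had 143, 118, 56.9 and 62.2 CPM in HFD A to D, against 0.900, 0.613, 0.890 and 1.61 CPM in CD A to D (log2 fold change 6.57, SE 0.41, adjusted p = 2.45e-05). Per3, a clock repressor, had 31.1, 36.3, 12.8 and 17.6 CPM in HFD A to D, against 1.37, 1.23, 1.78 and 1.58 CPM in CD A to D (log2 fold change 4.04, adjusted p = 0.000122). HFD A and B were above HFD C and D in Dbp and Per3, as in Lpin1, Lpin2, Dgat2, Agpat2, Dgat1 and Mogat1. Mttp divided in the opposite direction, with 379 and 446 CPM in HFD A and B and 499.6 and 465 CPM in C and D. Gpam and Pnpla3 divided in neither direction. Nr1d2, another repressor, rose by 1.78, and Nfil3, which opposes Dbp, had a log2 fold change of -1.72. The remaining clock genes that fell, picked with their values in view, were Arntl, Npas2 and Cry1. Summed hepatocyte markers had 137693 and 132170 CPM in HFD A and B and 110889 and 120285 CPM in HFD C and D. The summed endothelial markers divided the HFD libraries the other way. They had 179 and 208 CPM in A and B and 361 and 355 CPM in C and D, against 218 to 303 CPM in CD. Summed stellate markers had 345 and 330 CPM in HFD A and B and 494 and 580.0 CPM in HFD C and D, against 427 to 503 CPM in CD. Summed Kupffer cell and macrophage markers had 178 and 272 CPM in HFD A and B. In HFD C and D they had 306 and 473 CPM, against 231 to 337 CPM in CD. Cholangiocyte sums were 57.4 and 58.9 CPM in HFD A and B and 62.1 and 83.7 CPM in C and D. Lymphocyte sums were 6.35 and 8.14 CPM in HFD A and B and 10.2 and 15.3 CPM in C and D. Adipocyte sums, at 23.7, 21.2, 20.2 and 26.6 CPM in HFD A to D, did not divide A and B from C and D. Numbers in the RNA column headings, whose meaning is not stated, also set HFD A and B apart from HFD C and D and all HFD libraries apart from all CD libraries. The part of the clock genes, of the markers and of what the headings mark in the RNA values of the members was not tested.

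Likeness between members was taken as the Pearson correlation of log2 levels over the 8 libraries after the mean of each diet had been removed, as a description. It was highest for Agpat2 with Dgat1 (0.97) and for Lpin1 with Lpin2 (0.89), and lowest for Dgat1 with Mttp (-0.91). Of the 6166 genes expressed at least at the median, the 5 whose pattern was most like that of Dgat2 over all 8 libraries, the diet difference included, were Abcc6 (0.99), Etnk2, Fam20c, Aldh4a1 and Aagab (all 0.98). Abcc6, a liver efflux transporter, had 247, 251, 192 and 221 CPM in HFD A to D, against 160, 136, 174 and 169 CPM in CD A to D.

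H3K9ac passed the test at 1 region upstream of the Lpin1 5′ end and at no region of Dgat2. At 8 of the 9 genes a region covered the 5′ end given in the RNA table, and 0 of these 8 passed the threshold (edgeR quasi-likelihood; 1 of them, that of Agpat2, had an unadjusted p under 0.05, and DESeq2 also called 0). For Dgat2 this region (chr7:99176669-99183302, mm10, 6634 bases) had 191, 177 and 165 CPM in HFD A, B and D, against 203, 184 and 177 CPM in CD A, C and D. The diets overlapped, and the log2 difference was -0.08 (SE 0.07, adjusted p = 0.789). A second broad region in a Dgat2 intron (chr7:99160490-99170048, 9559 bases) had 154 ± 12.05 CPM in HFD and 155 ± 30.0 CPM in CD (SD, n = 3 each, adjusted p = 0.993). The other 7 Dgat2 regions had log2 differences between -0.37 and 0.29.

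**Figure D3:**
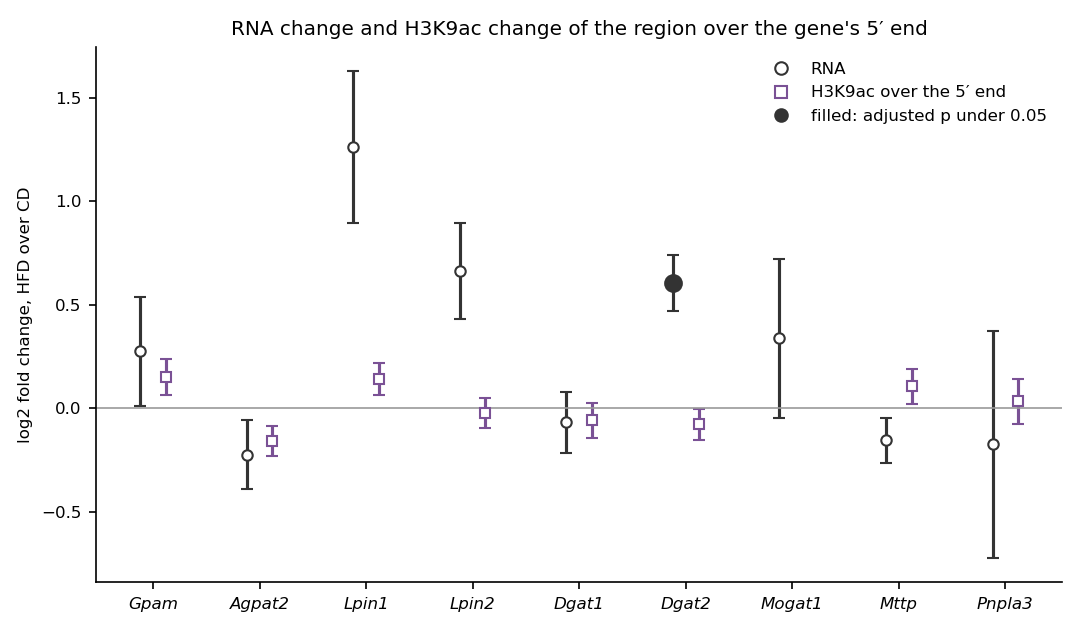
Log2 fold change, HFD over CD, of RNA (circles, 4 libraries a diet) and of the H3K9ac region over the gene's 5′ end (squares, 3 libraries a diet) for the 9 members, with whiskers of 1 SE. The filled circle of Dgat2 (0.60) is the only point with an adjusted p under 0.05, its square lies at -0.08, and Mogat1 has no square because no region covered its 5′ end.

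Of all 88 member regions 1 was called, higher in HFD, against 2.39% of all regions. An unadjusted p under 0.05 was found for 9 of the 88, beside 6310 of all 57499 regions. The diets did not overlap in 11 regions (12.5%, 6 higher and 5 lower in HFD), where 15.4% of all regions did not overlap (7.05% higher and 8.36% lower). The median log2 difference of the member regions was 0.05, beside -0.00 for all regions, and 50 were positive. At 1.14%, the called share of the member regions is near the background.

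The called region lay just upstream of the Lpin1 5′ end in the RNA table (chr12:16590222-16592894, 2673 bases). By the deposited annotation it was within 10 kb upstream of the start. The RefSeq start at chr12:16610966 lies farther upstream, so the region is downstream of that start. The called region had 31.3, 28.1 and 21.1 CPM in HFD A, B and D, against 20.5, 20.8 and 16.5 CPM in CD A, C and D. All HFD libraries were above all CD libraries, HFD D by a small margin. The means were 26.8 ± 5.21 CPM in HFD and 19.3 ± 2.40 CPM in CD (SD, n = 3 each), a log2 fold change of 0.48 (SE 0.13, adjusted p = 0.0259). Its call rested on most libraries, since the adjusted p was 0.350 with HFD A removed, 0.248 with HFD B removed, 0.0636 with CD C removed and 0.157 with CD D removed, and the region was not called by DESeq2 (0.0644). In the authors' deposited table its false discovery rate was 0.0185.

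Lpin1 had 21 regions, 16 of them with a positive difference, and the median over them was a log2 difference of 0.39. The region over its 5′ end (chr12:16584957-16589974, 5018 bases) held most of the signal, with 166, 165 and 142 CPM in HFD A, B and D, against 152, 146 and 132 CPM in CD A, C and D (log2 difference 0.14, SE 0.08, adjusted p = 0.518). Inside the gene, a region in an intron (chr12:16579642-16582456) had 13.5, 15.8 and 11.4 CPM in HFD A, B and D, against 10.1, 9.92 and 8.81 CPM in CD A, C and D. These diets did not overlap, yet the adjusted p was 0.0915 (0.209 without HFD A, 0.582 without HFD B and 0.0134 without HFD D). A shorter region between them (chr12:16583880-16584673) had a log2 difference of 0.61 (adjusted p = 0.109). It was 0.44 without HFD B (adjusted p = 0.651) and 0.85 without HFD D (adjusted p = 0.00224), and 0.28 under the replicate block (adjusted p = 0.75). With the counts of all 21 regions summed, Lpin1 had a log2 difference of 0.22 (SE 0.07, adjusted p = 0.122). In both assays HFD A and B were above HFD D at Lpin1. This order was not particular to Lpin1. It also held for the RNA and the 5′ end region of Dgat2 (191 and 177 against 165 CPM of H3K9ac). Dgat1 had it too (76.3 and 70.5 against 68.5 CPM of H3K9ac). The 5′ end regions of Gpam, Agpat2, Lpin2 and Pnpla3 did not have this order. The region over the Mttp 5′ end had it, but Mttp RNA did not.

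**Figure D4:**
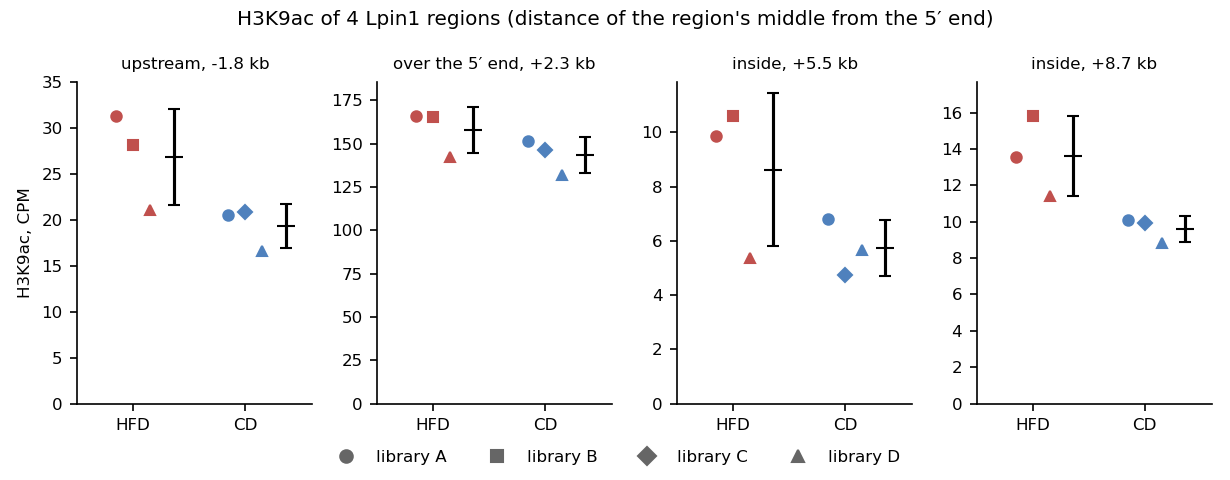
H3K9ac in CPM (linear axes from 0, a separate scale for each region) of 4 Lpin1 regions in HFD A, B and D (left) and CD A, C and D (right), with the mean ± SD of 3 libraries in black. The region upstream has all HFD libraries above all CD libraries (26.8 and 19.3 CPM on average), and the broad region over the 5′ end differs least in proportion.

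Lpin2 had 18 regions. The one over its start (chr17:71182732-71185146), which holds the E-box and GC box shown above, had 177, 166 and 168 CPM in HFD A, B and D, against 169.6, 187 and 162 CPM in CD A, C and D. These overlapped (log2 difference -0.02, SE 0.07, adjusted p = 0.957). An intronic region (chr17:71201546-71202423) had 12.01, 9.82 and 9.23 CPM in HFD A, B and D, against 6.25, 9.08 and 6.73 CPM in CD A, C and D, without overlap but with an adjusted p of 0.177. The median over all 18 was -0.03.

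Gpam, with 26 regions, carried the mark at both of its starts. The region at the nearer start (chr19:55098082-55100270) had 58.0, 63.8 and 67.1 CPM in HFD A, B and D, against 57.8, 58.2 and 53.9 CPM in CD A, C and D (log2 difference 0.15, SE 0.09, adjusted p = 0.569). The region at the upstream start (chr19:55124979-55128261), over the window with the sterol element core, had 51.7, 41.3 and 39.9 CPM in HFD A, B and D, against 45.5, 39.7 and 40.7 CPM in CD A, C and D (log2 difference 0.08, SE 0.10, adjusted p = 0.857). The diets overlapped at both starts. The 26 differences lay between -0.30 and 1.18, the last from a region with at most 18 reads in a library.

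**Figure D5:**
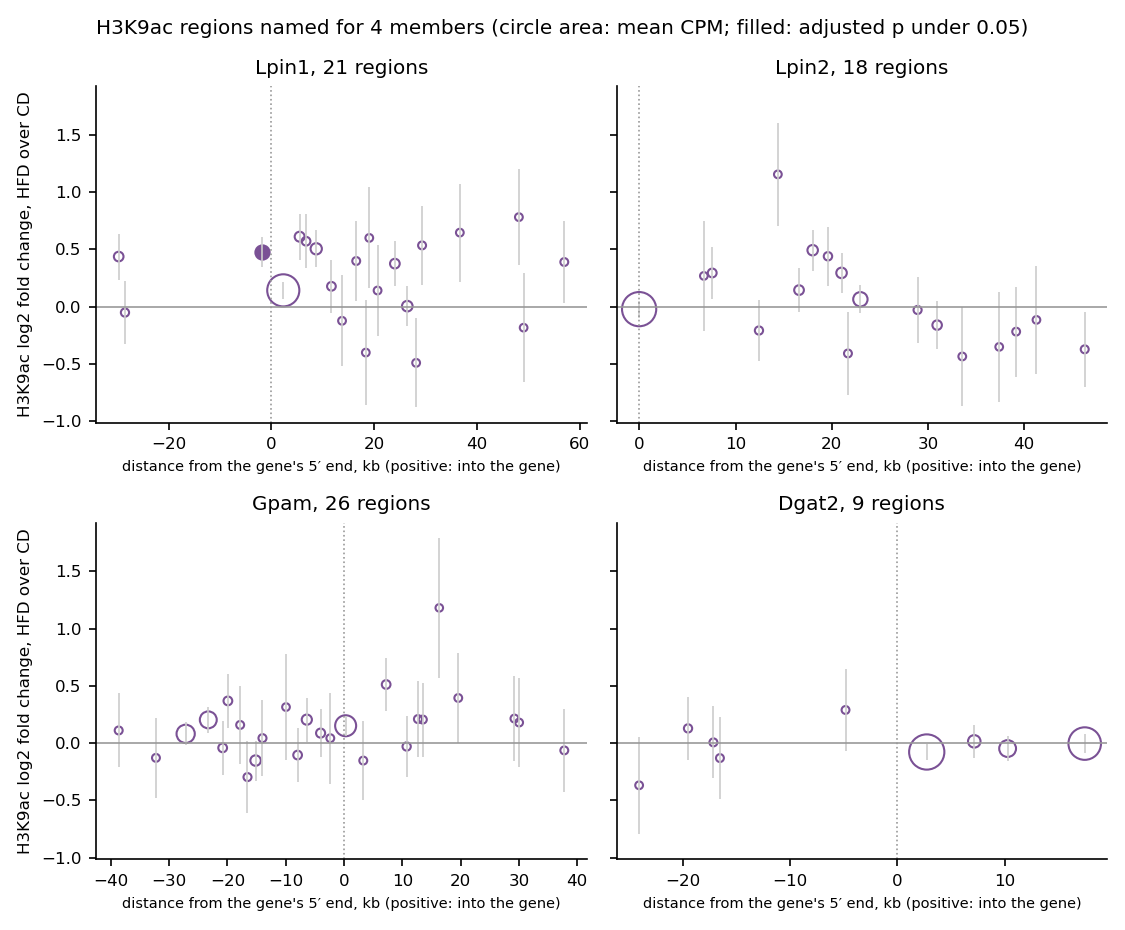
H3K9ac log2 fold change, HFD over CD, of every region named for Lpin1, Lpin2, Gpam and Dgat2 against the distance of its middle from the gene's 5′ end in kb (positive values run into the gene). Circle area grows with mean CPM and whiskers are 1 SE. The filled circle is the region upstream of the Lpin1 5′ end (0.48), the only one with an adjusted p under 0.05.

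The start region of Agpat2 (chr2:26602501-26605048) had 165, 148 and 171 CPM in HFD A, B and D, against 180.1, 177 and 183 CPM in CD A, C and D. All HFD libraries were lower, with a log2 difference of -0.16 (SE 0.07) and an adjusted p of 0.382. Dgat1 had 1 region (chr15:76510564-76512823), with 71.8 ± 4.03 CPM in HFD and 74.8 ± 3.85 CPM in CD (SD, n = 3 each, adjusted p = 0.882). Per kilobase of region, over all 6 libraries, the start regions of Lpin2 and Agpat2 had the densest mark, at 71.1 and 66.9 CPM per kb. Dgat1 (32.4), Lpin1 (30.0), Dgat2 (27.6) and Gpam (27.3 at the nearer start) had less. This density did not rank the genes as their RNA did, since Dgat2 had the highest RNA per length. Density divides by width, and the Dgat2 region spans 6634 bases, against 2415 for Lpin2 and 2548 for Agpat2. Undivided, the Dgat2 region had the most signal of these start regions, at 183 CPM over all 6 libraries. Lpin2 had 172 CPM and Agpat2 171 CPM.

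For Mttp and Pnpla3 the rule missed the 5′ end, because the region there was assigned to a neighbour. The 5′ end of Mttp lay in a region assigned to Trmt10a (chr3:138143066-138144369), with 68.5, 66.9 and 64.7 CPM in HFD A, B and D, against 67.7, 60.6 and 57.7 CPM in CD A, C and D (log2 difference 0.11, adjusted p = 0.743). That of Pnpla3 lay in a region assigned to Mir6392 (chr15:84167615-84169244), with 51.9, 41.6 and 51.6 CPM in HFD A, B and D, against 37.0, 46.7 and 58.2 CPM in CD A, C and D (log2 difference 0.03, adjusted p = 0.958). Both overlapped between diets, and neither can be assigned to 1 of the genes that meet there. The 4 regions assigned to Mttp itself lay inside the gene at 1.62 to 4.71 CPM, and Pnpla3 had 0 regions of its own.

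Mogat1 had no region over its 5′ end. Its 2 regions were a weak one near the start (chr1:78511610-78512202, 4.44 ± 0.535 CPM in HFD and 4.89 ± 1.04 CPM in CD, adjusted p = 0.888) and one inside the gene (chr1:78537392-78538144). The region inside had 15.5, 14.5 and 13.2 CPM in HFD A, B and D, against 12.2, 11.5 and 11.9 CPM in CD A, C and D. The diets did not overlap there, with a log2 difference of 0.28 (SE 0.15) and an adjusted p of 0.508.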

How the data were processed

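RNA of 4 HFD and 4 CD liver libraries and H3K9ac of 3 HFD and 3 CD liver libraries were analysed, while the input and ATAC libraries were not analysed here. Per the file headers, the authors deposited raw read counts per gene and per region, log2 FPKM and log2 CPM values, and log2 fold changes with p-values and false discovery rates. Coordinates are mm10 (from the submitters' processing notes). Aligner, peak caller, counter and strand setting: not given in the sources used here, so reads of overlapping or near-identical genes may be split. FPKM values here are the deposited log2 values turned back. The RNA table held 12334 named genes, the lowest with a mean count of 13.9, and 4999 blank lines that were left out. Of 57571 H3K9ac lines, 71 regions listed more than once were counted once, and 119 gene names had become date numbers. No column was left unmatched (0).

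Counts were tested with edgeR 4.0.16 (R 4.3.3, limma 3.58.1) by quasi-likelihood, with TMM scaling, filterByExpr and diet as the only term, two-sided, with Benjamini-Hochberg adjustment over all genes or regions and a threshold of 0.05. SEs are the log2 fold change over the root of the F statistic. A region of a member was its promoter region when within 1000 bases of a start by the deposited distance. Alternatives were DESeq2 1.42.0, other scalings and filters, each library left out, and the library letter as a block. The fits were also run on simulated counts with planted changes, in which libraries of a diet differed only by depth and random draw. No result given here rests on that run. Members, gene lists and marker lists were chosen with earlier results of these data known. Genes named were the 9 members, all other isoforms of their steps, up to 4 called genes of smallest p in each other list, and the 5 most like Dgat2. Pparg, Arntl, Npas2, Cry1, Cyp2e1, Tdo2 and Sox9 are named outside this rule, with their values in view. Regions named cover a 5′ end, have the highest signal of their gene or of its promoter regions, exceed 100 CPM or have p under 0.01. Counts differed between all pairs of libraries by more than sampling noise. No label ties a library to a separate animal beyond the stated number of mice, so p-values measure the spread between these libraries.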

Additional observations from a re-analysis of the deposited data

Results flagged for a closer look

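Among the members and the other named genes, 62 groups of 4 libraries were checked for a library apart from the rest, and 1 was found, where chance gives about 1 in 20. Nfil3, a repressor of the clock output genes, had 22.4 CPM in HFD A, against 16.9 to 17.1 CPM in HFD B to D, and the gap made up 0.957 of the range. All 4 HFD libraries stayed far below the lowest CD library, at 55.2 CPM.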

How the results depend on the processing

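The number of genes past the threshold was 897 and became 1405 by DESeq2, 543 under the median filter, which tests fewer genes, and 478 to 1107 with 1 library left out (478 with HFD B removed, 584 with CD A, 563 with CD B and 586 with CD C). The number of H3K9ac regions was 1372 and became 813 by DESeq2, 884 with the median filter and 563 to 1862 with 1 library left out (871 with HFD A removed, 563 with HFD B and 827 with CD C). Of the 9 members, 1 passed, against 0 to 3 with 1 library left out and 0 under the replicate block, where the adjusted p of Dgat2 was 0.0578. Letters did not pair the libraries (RNA correlations of same-letter deviations 0.29, 0.06, 0.23 and -0.22, H3K9ac 0.09 and 0.08 for A and D, the letters shared). Under the block 826 genes and 1297 regions passed. Of the 88 member regions, 1 passed, against 0 by DESeq2, 0 with the median filter and 0 to 3 with 1 library left out. The cause was not tested.

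Signs turned only for values that had not passed the threshold. Left-out libraries gave log2 differences in RNA of -0.20 to 0.012 for Dgat1, -0.86 to 0.21 for Pnpla3, -0.14 to 0.0063 for Agpat5 and -0.20 to 0.0195 for Lpin3. In H3K9ac they gave -0.12 to 0.15 for the Dgat2 intron, -0.0481 to 0.16 for the upstream Gpam start, -0.0557 to 0.0378 for the Lpin2 start, -0.27 to 0.0408 near the Mogat1 start and -0.12 to 0.22 at the Pnpla3 start. The Dgat2 intronic region was positive by RLE size factors (0.0035), library totals (0.0067), DESeq2 (0.0034) and the median filter (0.00075). The Lpin2 start was 0.0588 under the replicate block and 0.0215 over all its regions, and Mogat1 was 0.28 at its highest region and 0.17 over both. Of the values of single genes under the alternatives, 402 kept direction and call, 5 turned, 11 lost and 4 gained a call, and of single regions 194 kept, 14 turned, 6 lost and 2 gained. Mogat1 and Pnpla3 fall below the median filter and have no value there. Their counts of 11 to 262 reads limit what can be seen.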
